A study of Caenorhabditis elegans with 2 samples.

Results

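The ONECUT genes ceh-38, ceh-39, ceh-21, ceh-41, ceh-48 and ceh-49 are 6 of the 19973 nuclear protein-coding genes of Caenorhabditis elegans, and they were followed here through an anti-GFP chromatin immunoprecipitation. The genes were selected on membership of this homeobox family, with the peak signals at some of them already known, so their signals are given as a description without a test. The series holds 2 biological replicates of 1 group: whole L4 hermaphrodites, the last larval stage, of strain OP470 (unc-119(tm4063) III; wgIs470), an integrated transgenic line whose DUXL-1, a homeodomain protein, carries a C-terminal GFP-FLAG tag. Both replicates therefore share the unc-119 allele and the transgene, and the 2 libraries differ by no treatment. Larvae were sonicated whole, so signal from different tissues cannot be told apart. A control library entered the authors' peak calling but is not analysed here, and the peaks are described by position without attributing them to DUXL-1.

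ONECUT proteins combine a CUT domain with a homeodomain, both of which bind DNA, and mammalian relatives include the liver factor HNF6. In C. elegans, ceh-48 is expressed throughout the nervous system, and CUT family genes act together on genes that all neurons use. CEH-39 has a separate known role as an X signal element: with other products of X-linked genes it represses xol-1, the switch gene of sex determination, so that animals with a pair of X chromosomes develop as hermaphrodites.

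Deposited lists of peaks and of candidates were read, both in build ce11. The thresholded list holds the 1980 peaks that the authors kept after an irreproducible discovery rate (IDR) step, and the candidate lists hold 30000 regions each, background included. The thresholded peaks are the 1980 pooled candidates of highest signal, so each ranks within 1980 in the pooled list by construction. Signal is the value that the authors' peak caller gave each region, and it was compared only within a list. Each gene was given a window from 5 kb upstream of its annotated start to its end, and a region belonged to the window when its summit lay in it. The number of reads behind the lists is unknown.

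Of the 6 ONECUT genes, 3 had at least 1 thresholded summit in their window: ceh-38 on chromosome II, and ceh-39 and ceh-21 on X. Among all protein-coding genes 15.4% did, 16.4% on X and 15.2% on autosomes. The windows of ceh-48 (chromosome IV), ceh-49 (chromosome V) and ceh-41 (X) held none. Only 4 distinct peaks were behind this count, since a peak upstream of ceh-39 also lay in the window of ceh-21. All 4 overlapped one of the 1980 strongest candidates of each replicate, as did 52.2% of all thresholded peaks, and 8.97% of all genes had a peak of that kind in their window. At promoters, the stretch between 1000 bp before and 200 bp after a transcript start, 2 members had a peak, ceh-38 and ceh-39, against 6.71% of all genes.

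The sequences at these peaks are printed from the WBcel235 genome (RefSeq), which is the ce11 assembly, so that the stretches behind the family's peaks can be read. Transcribed leader sequence is left out, except for 30 bases around a word of the ONECUT type. The first is the 108 bases of the ceh-38 peak that lie before the annotated start (chrII:6951418-6951525, plus strand), part of the gap between ceh-38 and its divergent neighbour malt-1.
ceh-38 upstream: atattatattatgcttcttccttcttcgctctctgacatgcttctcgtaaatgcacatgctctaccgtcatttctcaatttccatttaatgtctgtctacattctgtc
The region upstream of ceh-39 is shown whole on the minus strand, which is the strand of the gene (chrX:1856202-1856481), with capitals for the 11 bases centred on the pooled summit.
ceh-39 upstream: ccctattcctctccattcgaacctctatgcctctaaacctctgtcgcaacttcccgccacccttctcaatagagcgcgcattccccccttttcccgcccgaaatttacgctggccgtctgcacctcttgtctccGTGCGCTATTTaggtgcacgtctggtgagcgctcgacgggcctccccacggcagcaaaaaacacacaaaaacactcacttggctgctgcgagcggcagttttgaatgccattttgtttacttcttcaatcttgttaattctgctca
The strongest peak of the family's windows is represented by the 112 bases in front of a tRNA gene (chrX:1858707-1858818, plus strand, the strand of that gene), again with the 11 summit bases in capitals.
tRNA flank: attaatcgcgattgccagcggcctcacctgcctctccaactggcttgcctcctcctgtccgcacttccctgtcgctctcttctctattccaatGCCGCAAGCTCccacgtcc

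ceh-38 had the clearest peak at its own start. The peak (chrII:6951418-6951697) had a signal of 195 in the pooled list, 79.9 in replicate 1 and 106 in replicate 2. Its rank by signal was 213 in the pooled list, 395 in replicate 1 and 198 in replicate 2, each out of 30000. Both replicates thus placed it well within their 1980 strongest regions. The pooled summit lay 32 bp downstream of the annotated start of ceh-38, in its 5 prime UTR. The replicate summits lay at 6951591 and 6951542, on either side of the pooled summit at 6951558. The gap between ceh-38 and malt-1, which encodes a paracaspase and is transcribed in the other direction, is 225 bp, so the peak is not tied to either gene by position alone. The best window signal of ceh-38 was above that of 98.0% of all protein-coding genes.

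The ceh-38 window also held weaker regions. With the thresholded peak included, it held 9 pooled candidates, or 10.1 per 10 kb. The median over all genes was 2.79 per 10 kb, and 97.2% of genes had 9 or fewer candidates. The strongest region of the family outside the thresholded list was in this window, in a coding exon 1815 bp downstream of the start, with a signal of 50.4 in the pooled list. That region had a signal of 15.6 in replicate 1 (rank 12758) and 33.3 in replicate 2 (rank 2034). The lowest signal in the thresholded list was 65.0, and the weakest thresholded peak of the family had 93.2. A region in the 3 prime UTR of ceh-38, where it meets the convergent gene tra-2, had a signal of 43.4 in the pooled list and 30.5 in replicate 1, with no overlapping candidate in replicate 2. A further region lay 749 bp upstream of ceh-38, inside an intron of malt-1. It had a signal of 38.7 in replicate 1 (rank 1810, so among the strongest 1980) but no candidate in replicate 2, and only 16.2 in the pooled list (rank 29572). Neither of these last regions had a candidate in both libraries.

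**Figure D1:**
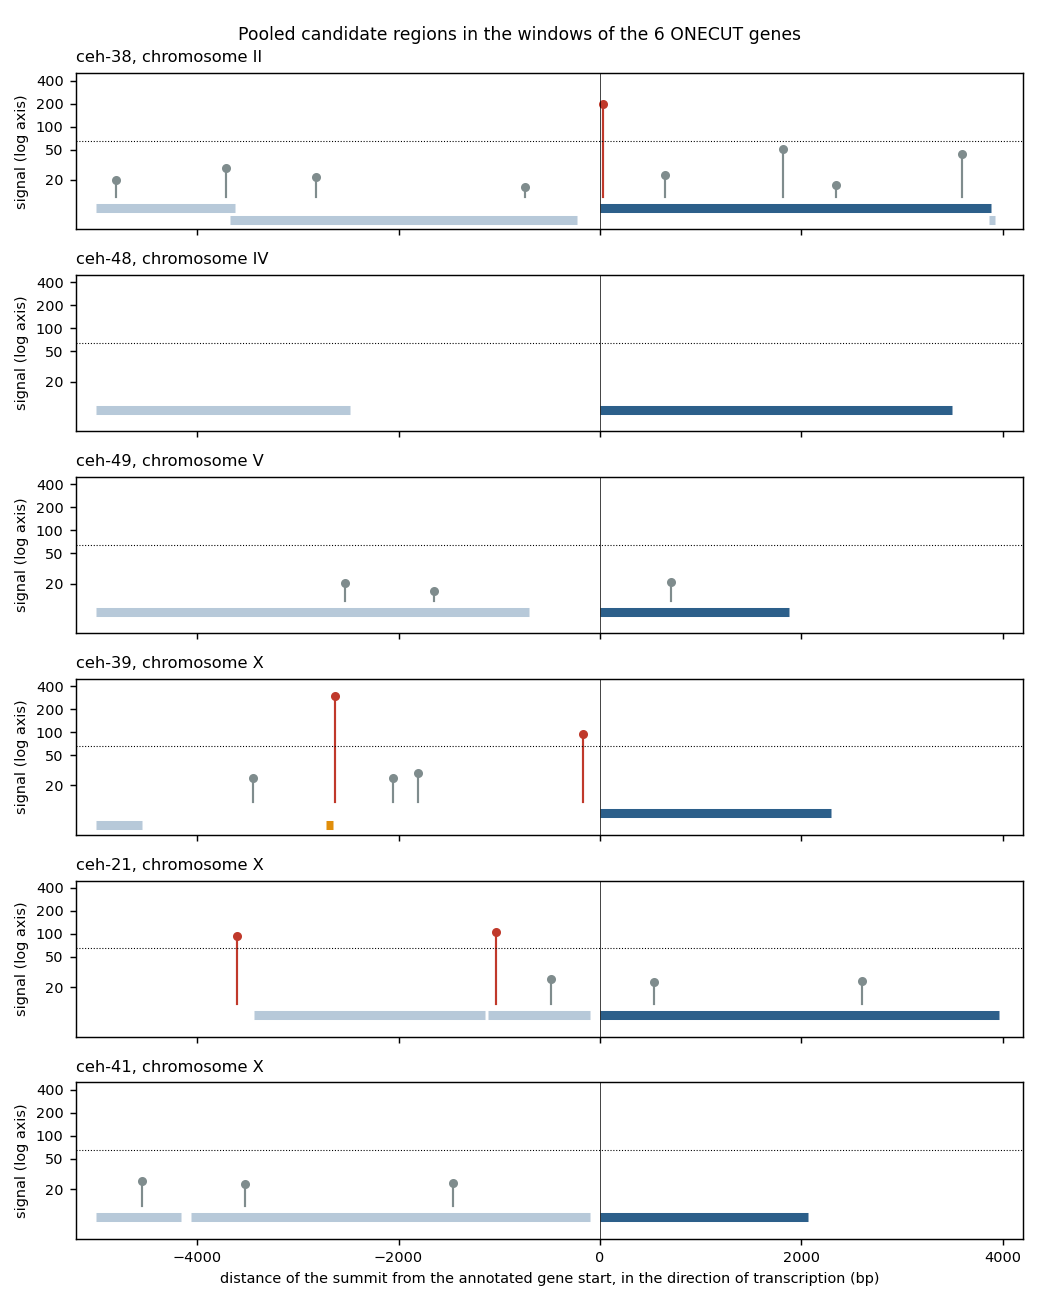
Pooled candidate regions in the window of each ONECUT gene, plotted by the distance of the summit from the annotated gene start in bp (x axis) and by signal on a log axis (y axis). Red stems are thresholded peaks, grey stems other candidates, the dotted line the lowest thresholded signal (65.0), dark bars the member gene, light bars other protein-coding genes and the orange bar a tRNA gene, with the lower row for the opposite strand. ceh-38, ceh-39 and ceh-21 have red stems, ceh-49 and ceh-41 only grey ones, and ceh-48 has none.

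On X, ceh-39, ceh-21 and ceh-41 lie next to each other on the minus strand, within 9565 bp (chrX:1846608-1856172). From ceh-41 to ceh-21 the gap is 103 bp, from ceh-21 to T26C11.9, which encodes an uncharacterized protein, it is 101 bp, and from T26C11.9 to ceh-39 it is 24 bp. Because the windows overlap, these 3 genes are not independent. Together their windows held 9 candidates and 3 thresholded peaks, and those of the 3 autosomal members held 12 candidates and 1 thresholded peak. In the direction of transcription, the 3 X peaks lay upstream of ceh-39 or at the 5 prime end of T26C11.9, and none lay in ceh-21 or ceh-41.

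The peak closest to ceh-39 lay in the sequence printed above, 170 bp upstream of its start and in no annotated gene at its summit. It had a signal of 93.2 in the pooled list, 62.2 in replicate 1 and 37.6 in replicate 2. Its rank was 1011, 686 and 1560 in those lists. The summit was at the same base, 1856342, in all 3 lists. The signal was near the middle of the thresholded list, where 48.9% of peaks were lower and the median was 94.6. GC content was 52.5%, against a median of 42.5% over thresholded nuclear peaks.

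The strongest peak in any ONECUT window lay 2633 bp upstream of ceh-39 (chrX:1858707-1858908). It had a signal of 299.5 in the pooled list (rank 89), 175 in replicate 1 (rank 74) and 131 in replicate 2 (rank 125). It was the strongest of the 4 peaks in every list. The pooled summit lay 14 bp before T26C11.t1, a tRNA-Glu gene (per RefSeq) on the opposite strand from ceh-39, and the nearest protein-coding start was that of T26C11.8 (an XK-related protein), 1917 bp away. Of the tRNA genes on X, 49.6% had a thresholded summit within 100 bp, so a peak at this gene is of a common kind on that chromosome. Without this peak, the best signal in the ceh-39 window was that of the peak 170 bp upstream. Whether the tRNA gene accounts for the peak was not tested.

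The tRNA gene itself is 72 bp long and occurs as 15 exact copies in the genome, 8 of them on X. Of these, 11 had a thresholded summit within 100 bp, 7 of them on X. Their signals ran from 72.6 to 299.5 with a median of 120, and the copy beside ceh-39 had the highest. The whole peak region has 1 exact match in the genome. How the authors' alignment treated reads that match several copies is not given in the sources used here, so signal inside the tRNA gene may be split among copies.

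The third X peak lay at the boundary of T26C11.9 and ceh-39 (chrX:1853631-1853910), 1035 bp upstream of ceh-21. It had a signal of 105 in the pooled list (rank 803), 40.4 in replicate 1 (rank 1652) and 43.0 in replicate 2 (rank 1169). Both replicates placed it inside their 1980 strongest regions, with less room in replicate 1. The summit was 78 bp downstream of the start of T26C11.9, in its 5 prime UTR, so this peak was nearer to T26C11.9 than to any ONECUT start. Within the window of ceh-21 it stood beside the peak upstream of ceh-39, which gave ceh-21 and ceh-39 2 thresholded peaks each, as 2.68% of all genes had 2 or more.

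**Figure D2:**
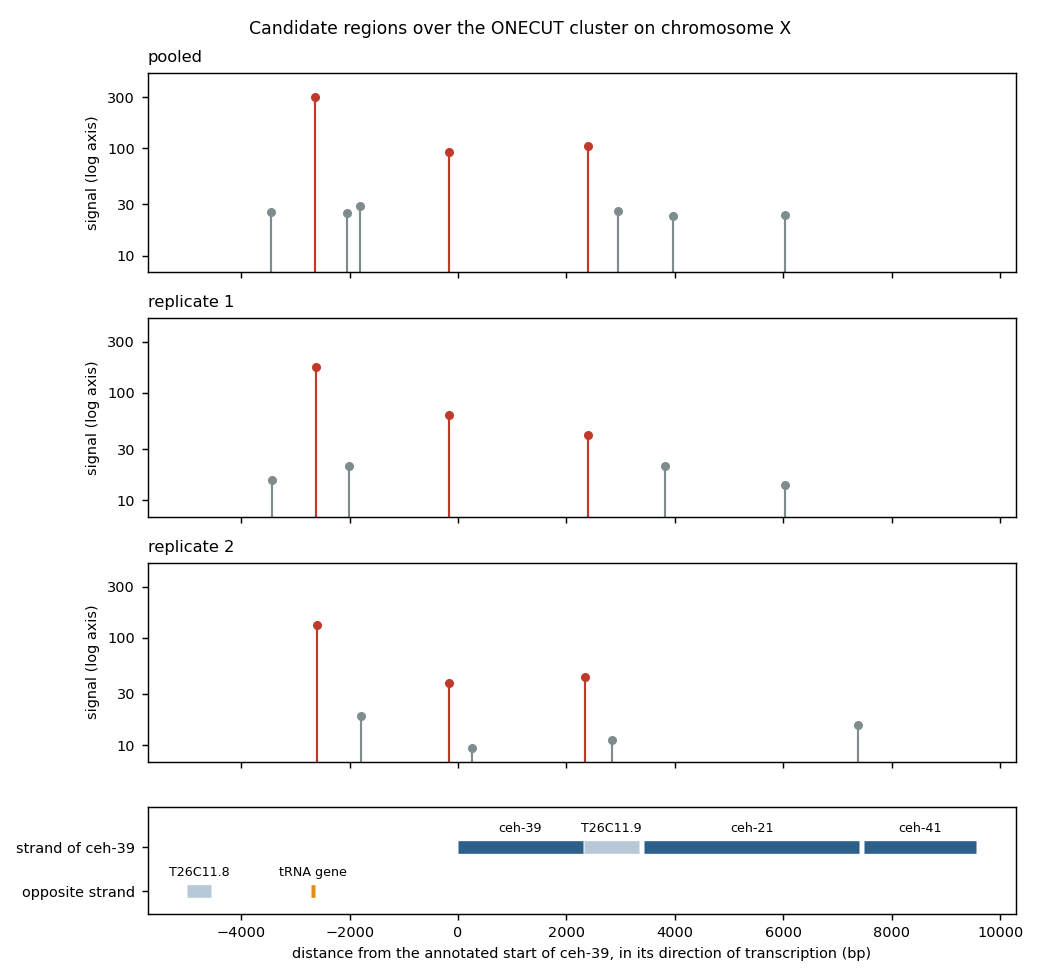
Candidate regions over the windows of ceh-39, ceh-21 and ceh-41 in the pooled list and in each replicate, by distance of the summit from the start of ceh-39 in bp (x axis) and signal on a log axis (y axis), with protein-coding and tRNA genes in the lowest panel. Red stems are among the 1980 strongest regions of their list and grey stems are weaker. The 3 thresholded peaks, red by construction in the pooled list, are also red in both replicates, and the weaker stems lie at different positions in the replicates.

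The replicates did not order the 4 peaks alike. The tRNA peak came first and the ceh-38 peak second in both. The peak upstream of ceh-39 came before the T26C11.9 peak in replicate 1 (ranks 686 and 1652) and after it in replicate 2 (ranks 1560 and 1169). With 2 libraries no error can be given beyond these pairs of values.

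**Figure D3:**
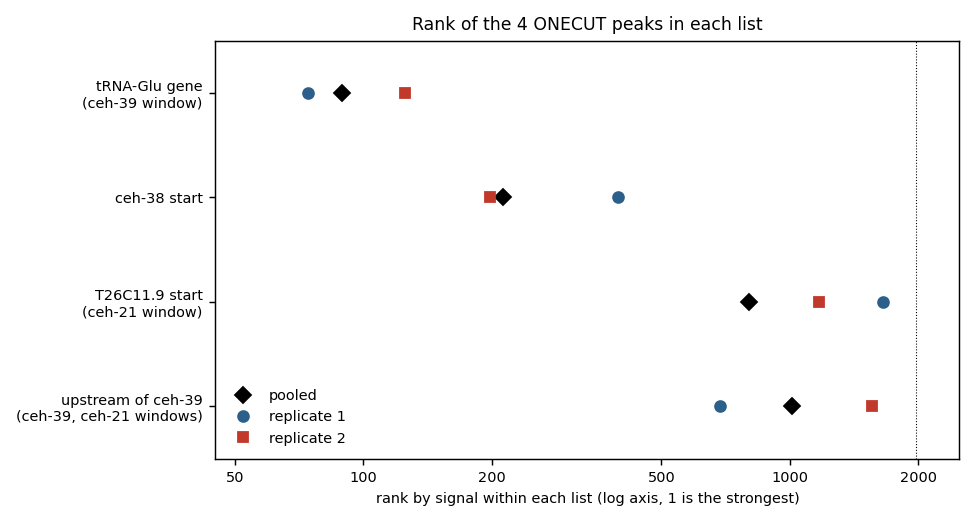
Rank of each of the 4 thresholded peaks in ONECUT windows within the pooled list (diamonds), replicate 1 (circles) and replicate 2 (squares), on a log axis where 1 is the strongest of 30000 regions. The dotted line marks rank 1980, and all points lie to its left, from rank 74 to rank 1652. For the pooled points this holds by construction.

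The other 3 members had weak regions or none, and none of their pooled candidates overlapped candidates of both replicates. ceh-41, the last member of the X cluster in the direction of transcription, had 3 pooled candidates with signals from 23.2 to 25.9. They lay in coding exons of ceh-21 and T26C11.9. Replicate 2 alone had a candidate 122 bp upstream of ceh-41, with a signal of 15.4 (rank 11331). ceh-49 had 3 pooled candidates with signals of 16.1, 20.6 and 21.04. The strongest of them lay in an intron of ceh-49 and overlapped a candidate of replicate 2 only, with a signal of 18.8 (rank 7540). Another, in a coding exon of ttn-1, the gene of a titin-like muscle protein, overlapped a candidate of replicate 1 only, with a signal of 18.3 (rank 9244). For comparison, the lowest signal among all pooled candidates was 16.02.

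ceh-48 alone among the members had no pooled candidate, whereas 70.2% of all genes had at least 1. Replicate 1 had no candidate in its window either. Replicate 2 had 2, with signals of 13.4 (rank 14469), 2273 bp downstream of the start, and 9.33 (rank 24640), 4985 bp upstream. Its neighbours were also low: C17H12.10 had a best signal of 18.7 and C17H12.5 had no candidate. The lists end at 30000 regions, so signal below that limit is not recorded.

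Ordered by the best signal in the window, the members ran from ceh-39 (299.5) through ceh-38 (195), ceh-21 (105), ceh-41 (25.9) and ceh-49 (21.04) to ceh-48. The best signal of ceh-39 was above that of 99.3% of all genes, that of ceh-21 above 92.6%, that of ceh-41 above 45.2% and that of ceh-49 above 36.6%. The median best signal was 28.5 over all genes and 65.5 over the family, with genes that had no candidate placed lowest. The 3 members without a peak lay below the median of all genes. In replicate 1 alone ceh-39 (175), ceh-38 (79.9), ceh-21 (62.2), ceh-41 (20.9) and ceh-49 (18.3) kept this order. The ceh-21 value there came from the peak upstream of ceh-39, since the T26C11.9 peak, its best in the pooled list, had 40.4 in replicate 1. In replicate 2 alone ceh-49 (18.8) came before ceh-41 (15.4), and ceh-48 had 13.4. The X members had a median of 5.58 candidates per 10 kb (range 4.24 to 6.85) and the autosomal members 4.36 (range 0 to 10.1), so the ranges overlapped. All genes on X had a median of 2.56 and all autosomal genes 2.83.

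**Figure D4:**
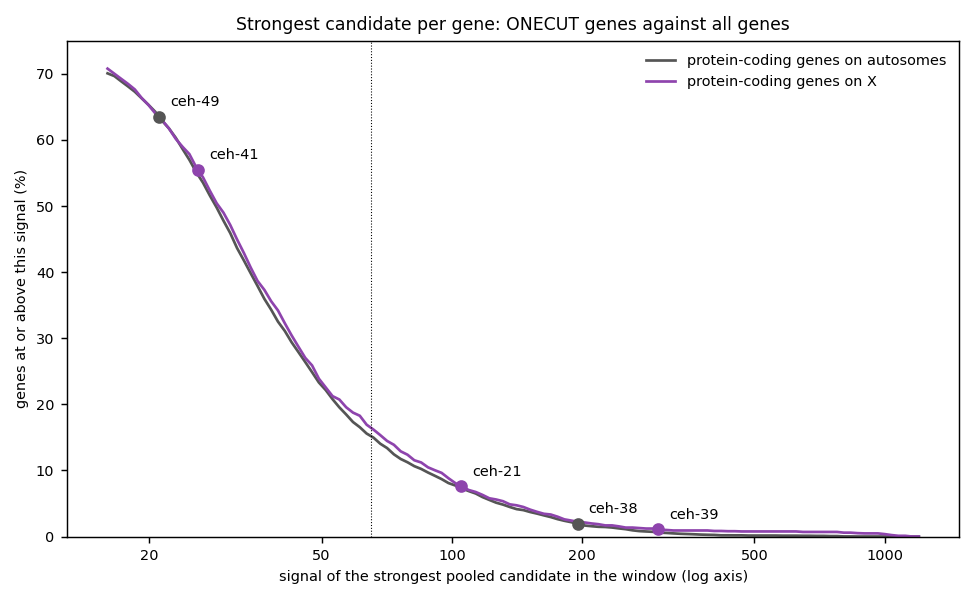
Percentage of protein-coding genes whose strongest pooled candidate reaches a given signal (y axis) against that signal on a log axis (x axis), for autosomes (grey) and X (purple), with the ONECUT genes marked on the curve of their chromosome class and the lowest thresholded signal of 65.0 as a dotted line. ceh-49 and ceh-41 lie on the steep part of the curves, and ceh-21, ceh-38 and ceh-39 in the upper tail. The points of ceh-39 and ceh-21 stand for the tRNA peak and the T26C11.9 peak in their windows. ceh-48 has no candidate and is not drawn.

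The core words of ONECUT sites, ATCGAT and ATTGAT, were searched on both strands. ATCGAT reads the same on both strands, and each occurrence was counted whether or not it overlapped another word. Within 50 bp of the summit, 3.82% of the 1965 thresholded nuclear peaks held ATCGAT and 7.07% held ATTGAT, and none of the 4 ONECUT peaks held either. Among all 28019 other nuclear candidates the shares were 4.07% and 10.4%. A word built like the site of mammalian DUX proteins (TAAT, a gap of any 2 bases, then AATCA) was within 50 bp of the summit in 4 of the 1965 peaks and in none of the ONECUT candidates.

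Anywhere in the region, 10.5% of thresholded nuclear peaks held ATCGAT and 21.6% held ATTGAT. The ceh-38 peak held ATCGAT, centred 124.5 bp downstream of the summit (chrII:6951668-6951697, plus strand). The peak at T26C11.9 held ATTGAT, centred 53.5 bp from the summit (chrX:1853810-1853839, minus strand). Both are printed with the word in capitals, to show the only ONECUT-type words in the family's thresholded peaks.
ceh-38 word: gtggccatcagtATCGATcggtgtctagtc
T26C11.9 word: cttttgcataccATTGATttttgggggtta
The peak upstream of ceh-39 and the tRNA peak held neither word. The tRNA peak held GTTCNANNC, the B box inside tRNA genes that recruits the polymerase III factor TFIIIC, on the strand of the tRNA gene and 69 bp from the summit. This word was added after the values were seen. It occurred in 20.1% of thresholded nuclear peaks and in 71.4% of those with a summit within 100 bp of a gene for tRNA, snoRNA or snRNA.

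Genes around and downstream of the family varied widely. In the pathway that ceh-39 feeds, 25 genes of sex determination and dosage compensation were listed. Of these, 8 had a thresholded peak in their window (32%, beside 15.4% of all genes). This share rests on the 5 kb window. The best peaks of xol-1, sdc-1, dpy-28, tra-2 and dpy-21 lay 4908, 4433, 3882, 2693 and 2243 bp upstream. A 2 kb window, in which 10.6% of all genes had a peak, was not applied to the list. Window lengths of the list were not compared with those of all genes. At promoters, 1 of the 25 had a peak, sdc-2, beside 6.71% of all genes. The median best signal of this list was 38.5, beside 28.5 over all genes. xol-1, the gene that X signal elements repress, had a peak in its window 4908 bp upstream of its start. The signal was 840 in the pooled list, 416 in replicate 1 and 439 in replicate 2. This summit lay between genes, near the far edge of the 5 kb window, and a 2 kb window would leave it out. Which gene start is nearest to it was not examined. The peak of sdc-2, which recruits the dosage compensation complex to X, lay 417 bp upstream of its start, with a signal of 180 (74.0 and 107 in the replicates). Other genes of that complex or its regulation with a peak were dpy-28 (signal 729, 3882 bp upstream), mix-1 (207, in an intron next to a small RNA gene), dpy-21 (111, 2243 bp upstream) and sdc-1 (98.5, at a small RNA gene 4433 bp upstream). sea-2, an autosomal signal element that acts against the X signal elements, had a peak in an intron with a signal of 76.7. This peak had 30.2 in replicate 1 (rank 3025) and 21.1 in replicate 2 (rank 5813), outside the 1980 strongest regions of either. sea-1, the other sea gene on the list, had no thresholded peak and a best signal of 41.2. Of the other X signal elements on the list, fox-1 had no thresholded peak, with a best signal of 43.1, and sex-1 had no pooled candidate. tra-2, which promotes female development and meets ceh-38 tail to tail, had 2 thresholded peaks with a best signal of 103, at a small RNA gene 2693 bp upstream of its start.

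Of 20 pan-neuronal genes, a class on which CUT factors act, 1 had a thresholded peak (5%, beside 15.4% of all genes), which was unc-18, the gene of a synaptic vesicle fusion protein. Its peak had a signal of 66.3 in the pooled list, 60.5 in replicate 1 and 17.7 in replicate 2, so it was weak in the second library, and it lay next to a small RNA gene. dve-1, another homeobox gene with a CUT-related domain, had a peak in its 5 prime UTR with a signal of 75.2 in the pooled list, 47.6 in replicate 1 and 12.9 in replicate 2. ceh-44 was not matched by its symbol and is not analysed here. The median best signal of the pan-neuronal list was 37.95, above the 28.5 over all genes. At duxl-1, the gene carried by the transgene, the window held 4 thresholded peaks, whereas 2.68% of all genes held 2 or more. The strongest of these 4 reached 184 when pooled, 124 for replicate 1 and 79.0 for replicate 2. Both libraries contain the transgene, and whether extra DNA from it accounts for these peaks was not tested.

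Among close neighbours, cwf-19L1 beside ceh-49 had a best signal of 91.4 and T26C11.4 beside ceh-41 had 100, each from 1 thresholded peak. The genes whose best peak was most like that of ceh-39, by Euclidean distance over log2 signal in the pooled list and both replicates, were T26C11.8 and T26C11.9, which share the tRNA peak itself, and col-93 (distance 0.0276). The summit of the peak in the col-93 window lay in an intron of dhc-4. For ceh-38, an order added after the values were seen, the most similar were malt-1, which shares the peak, and the pair C03D6.1 and npp-14. That pair shares another peak (distance 0.0492), with its summit in an intron of C03D6.1. These distances rest on 2 libraries.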

How the data were processed

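Chromatin from 2 replicates was precipitated with anti-GFP and sequenced. Per the deposited README files, candidates were called against a control per replicate and on pooled alignments, and an IDR step gave the thresholded list. Neither aligner, caller nor threshold is given in the sources used here. The deposited files give a signal and a -log10 q per region. The -log10 q is capped at a ceiling that all thresholded peaks share, so the authors' signal was used for ranks within a list.

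Windows, summit assignment, replicate matching (the candidate with the largest overlap, at least 1 bp) and word searches used Python 3.11.15, numpy 2.4.6 and pandas 2.3.3, with Ensembl release 115 genes and RefSeq sequence of WBcel235. Coordinates are 1-based. Assignment was tested on simulated summits. The ce10 lists were not used. The 15 mitochondrial peaks count among the 1980 thresholded peaks and in the ranks and signal medians of that list. They were left out of the gene windows, the word shares and the GC median. Named genes were the members, their neighbours, up to 5 listed genes with a peak per list, duxl-1 and the 3 genes with the most similar peak. fox-1, sex-1, sdc-1, sea-1, sea-2, dhc-4 and the genes whose peak is most like that of ceh-38 fall outside this rule and were added after their values were seen. Members and lists were chosen with earlier results of these data known, so no test was made and no p-value is given. Alternatives covered the window, the overlap rule, stricter peak sets, each replicate alone and peaks at small RNA genes.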

Additional observations from a re-analysis of the deposited data

How the results depend on the processing

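The count of ONECUT genes with a thresholded peak was 3 in 6 of 8 alternatives, 2 with promoter windows and 4 when any overlap of the region counted, which added ceh-41. The 4 distinct peaks became 2 with promoter windows. They became 3 with a 2 kb window, with the 990 strongest peaks and without peaks at small RNA genes. With either replicate alone they ranged from 4 to 5. The added peak with replicate 1 alone, in the malt-1 intron, gave ceh-38 2 peaks. The share of all genes with a peak fell to 6.71% with promoter windows, 8.86% with the 990 strongest peaks and 8.97% with peaks found in both replicates, each by using fewer peaks or shorter windows, and ranged from 14.8% to 14.99% with either replicate alone. Candidates in the windows numbered 21, and ranged from 16 to 19 with either replicate alone. The windows of ceh-39 and ceh-21 went from 2 peaks to 1 each with a 2 kb window and with the 990 strongest peaks. Without peaks at small RNA genes ceh-39 had 1 and ceh-21 still 2. Requiring a reciprocal overlap of 50% changed no replicate signal of the 4 peaks. No paired analysis was possible because there is only 1 group. The lists hold no read counts, so depth sets a limit that cannot be given, and regions weaker than the 30000 listed are not seen.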
